A study of Mus musculus with 8 samples.

Results

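Genes of sterol, fatty acid and sebaceous lipid synthesis were examined in the skin of mice treated on the back with water, minoxidil, tieghemelin or maslinic acid. The list held 44 genes: 19 of cholesterol synthesis and its control, 15 of fatty acid synthesis and modification, and 10 of the lipids made by sebaceous glands. A gene was taken as measured when a probe set carried it as its single symbol in the array's annotation, which held for 40 of the 44, or 40 of the 22206 probe sets tested. By branch these were 18 cholesterol, 13 fatty acid and 9 sebaceous lipid genes. Tm7sf2, Scd2, Soat1 and Srebf1 were not analysed here.

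The skin came from male C3H mice, an inbred strain, which were 7 weeks old and had been assigned at random to groups of 8. The back was trimmed and depilated in all 4 groups, and the compound was then applied to the skin daily for 20 days. Controls received Milli-Q water; minoxidil, a drug used against hair loss, tieghemelin and maslinic acid were each given at 1%. For the second minoxidil array the description says 1% but the source name 2%. Both control arrays are titled as the controls of tieghemelin and maslinic acid, and the same 2 arrays served here for minoxidil. Each group had 2 Clariom S Mouse arrays, which measure transcripts by probe sets, and values are log2 signals. No label ties an array to a single mouse, and the spread behind every p-value is that between these arrays, possibly a technical one. Tieghemelin and maslinic acid are called the triterpenes below. The study set out to examine their effect on hair growth, which in these mice is restarted by depilation.

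Cholesterol is built from acetyl-CoA through mevalonate, isoprenoid units and squalene, which is cyclised to lanosterol and then trimmed step by step to cholesterol. Transcription of these enzymes is driven by SREBP2, the product of Srebf2, which INSIG1 holds in the endoplasmic reticulum when sterols are plentiful. Fatty acids are made by acetyl-CoA carboxylase and fatty acid synthase, lengthened by the elongases (Elovl genes) and given double bonds by desaturases (Scd and Fads genes). In skin these lipids feed the barrier of the epidermis and sebum, the wax esters and triglycerides that sebaceous gland cells release by bursting.

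Control array 1 stood apart from the rest, with a Pearson r of 0.518 to 0.538 to the others over all probe sets, against 0.901 to 0.966 among the other 7. For this reason the treated groups were compared on the 6 treated arrays alone, and comparisons with water are given with and without that array. Background was taken as the median of 23 antigenomic probe sets (designed to match nothing in the mouse) and was 7.61 to 7.75 in control skin, 7.33 to 7.51 under minoxidil and 6.96 to 7.08 on the 4 triterpene arrays, so it differed between groups. Each array had a single such level for every probe set, so values and folds set against it are approximate. Of the 40 measured genes, 14 lay above that median on all 8 arrays, and 4 (Cyp51, Ebp, Fads1 and Pm20d1) on none. Where no array of a group exceeded it, the dim group was raised to background and the fold is written as "at least"; no fold is given where both groups were below it or where raising the dim group left no difference. Keratinocyte markers (Krt5, Krt14, Krt1, Krt10, Dsp and Trp63) were above background for 6 of 6 genes on every array but control array 1, where 5 were. Skeletal muscle markers, from the muscle sheet under the skin, differed most between arrays, with medians over 8 genes of 12.96 and 15.03 in control, 11.56 and 11.08 with minoxidil, 9.32 and 8.80 with tieghemelin, and 12.19 and 9.85 under maslinic acid. In whole skin, fewer cells of a type and less RNA per cell cannot be told apart.

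**Figure D1:**
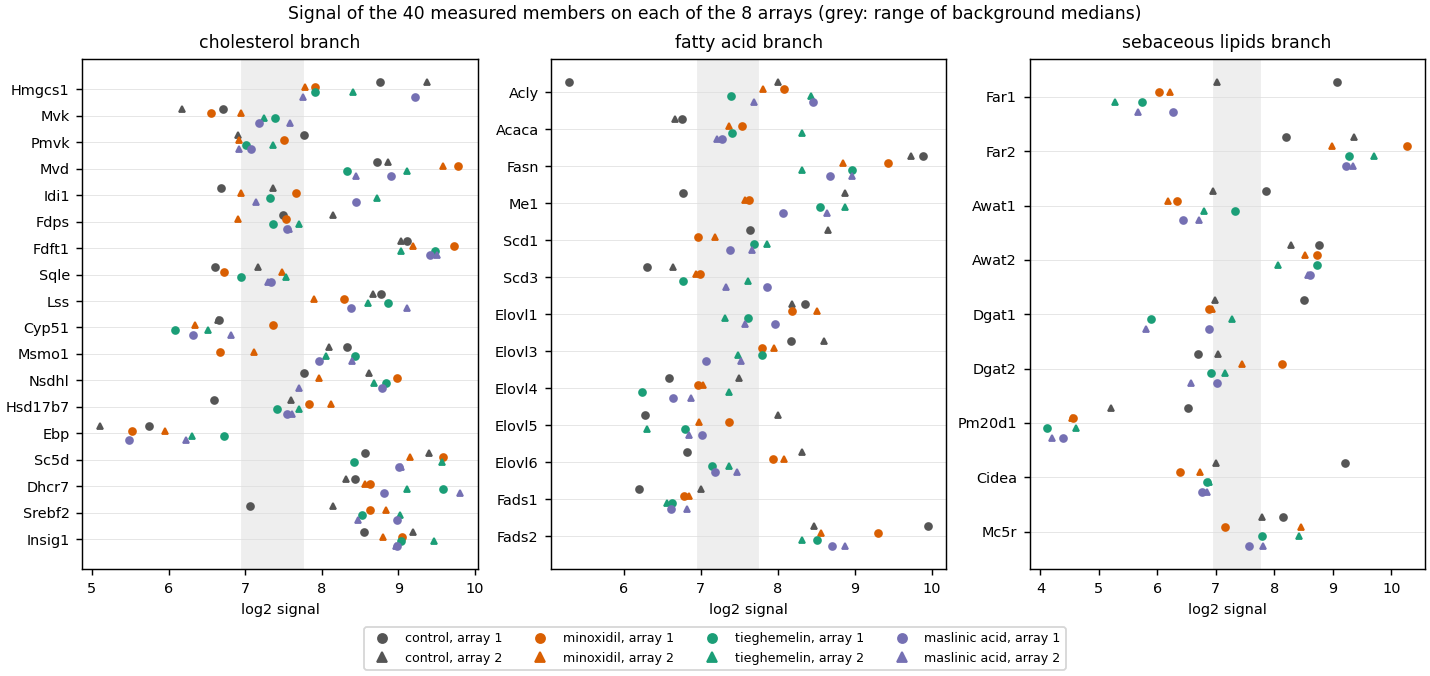
Log2 signal (x axis) of the 40 measured genes on each of the 8 arrays, by branch in pathway order, with colour for the group and shape for the array. Control array 1 often lies away from control array 2, as for Acly (5.29 and 8.00) and Far1 (9.07 and 7.02), while Msmo1 has its 2 minoxidil arrays below the other 6.

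Against minoxidil, the mean of both triterpenes had more Msmo1 and Me1 and less Mvd and Dgat2 at the study's unadjusted thresholds. Only Msmo1 and Mvd also met them with each compound alone. Branch medians ran from -0.22 to 0.30 log2 units over both compounds. The study's own thresholds (1.7-fold or more with p no higher than 0.05, before adjustment) were met by 6 of the 40 genes for tieghemelin, 15.0%, where 10.4% of all probe sets met them. Of these genes 4 were higher and 2 lower, against 4.95% and 5.47% of all probe sets. For maslinic acid 3 genes met them (7.5%, against 11.1% of all probe sets), 1 higher and 2 lower, against 5.3% and 5.79%. The mean of the 4 triterpene arrays against minoxidil gave 4 genes (10.0%, against 10.1%), 2 higher and 2 lower, against 4.78% and 5.35%. The share lay above that of all probe sets for tieghemelin, below it for maslinic acid and near it for the mean of both. The counts are small, and no difference is read from them. Group ranges were separate for 19 genes with tieghemelin and 20 with maslinic acid, as they were for 43.8% and 43.6% of all probe sets, and for 13 genes in the mean of both, as for 27.9% of all.

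After Benjamini-Hochberg adjustment over all probe sets, limma called 0 of the 40 genes in each of these 3 comparisons, with smallest adjusted p-values of 0.211, 0.184 and 0.0934, all for Msmo1. An unadjusted p under 0.05 was reached by 9 genes with tieghemelin, 5 with maslinic acid and 9 in the mean of both, that is 22.5%, 12.5% and 22.5%, where 12.8%, 13.6% and 16.4% of all probe sets reached it. Over all probe sets the adjusted calls numbered 0, 0 and 4, the last being 0.018%. In what follows a gene is said to have met the thresholds only in the study's unadjusted sense. The cholesterol branch had a median log2 difference from minoxidil of 0.18 in the mean of both triterpenes, with 12 of 18 genes higher. The fatty acid branch had a median of -0.22 with 5 of 13 higher, and the sebaceous branch one of -0.22 with 3 of 9 higher. The cholesterol median was 0.03 among brighter probe sets (mean signal above the median) and turned to -0.03 with values below background set to it; for tieghemelin alone it went from 0.30 to -0.04 with that floor. All probe sets had a median of -0.03, with 47.6% higher, and their values from the 5th to the 95th percentile ran from -0.80 to 0.77.

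**Figure D2:**
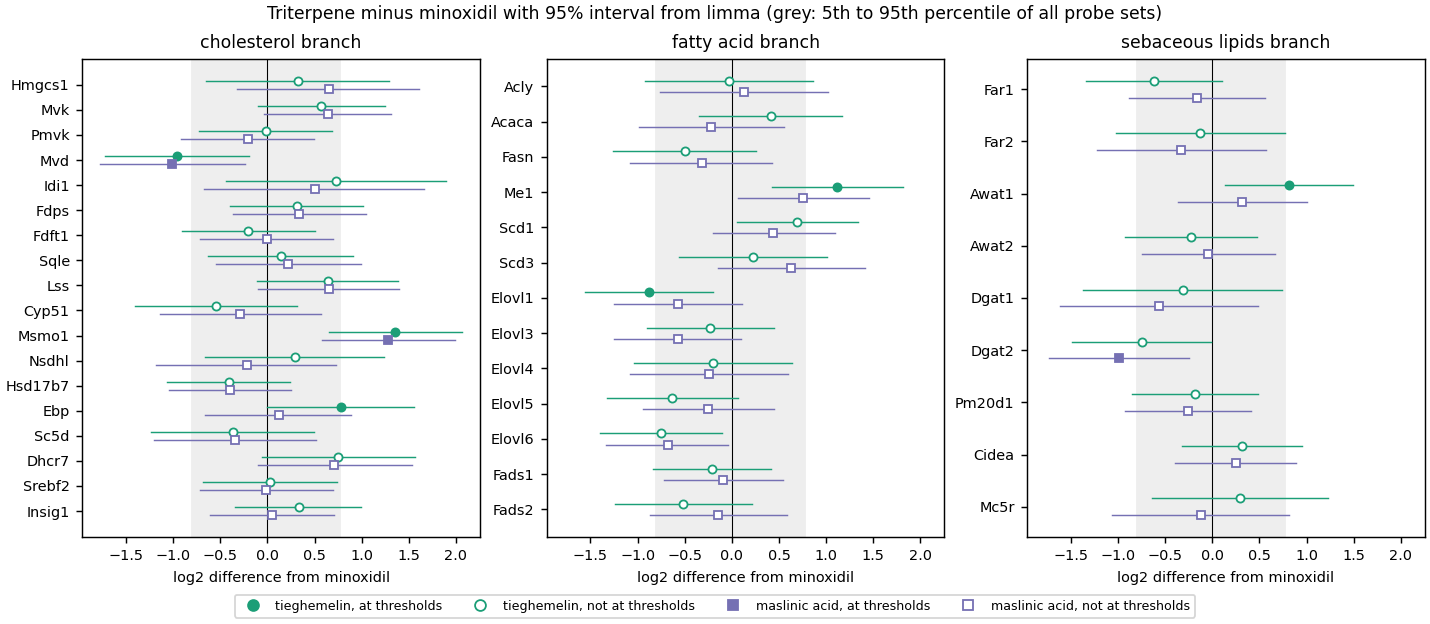
Log2 difference from minoxidil (x axis) for tieghemelin (circles) and maslinic acid (squares) with 95% confidence intervals from limma on the 6 treated arrays; filled symbols met the study's thresholds and the grey band holds the 5th to 95th percentile of all probe sets, -0.80 to 0.77, for the mean of both. Msmo1 and Mvd are the genes with both symbols filled, at 1.35 and 1.28 and at -0.96 and -1.01.

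Msmo1 and Mvd, the cholesterol genes that met the thresholds with both triterpenes, differed from minoxidil in opposite directions. The 250 bases before their start sites are shown, from RefSeq on GRCm38.p6, with those of Hmgcs1, an early enzyme of the branch, for comparison. They read 5′ to 3′ on the gene's strand. Capitals mark the CCAAT box on either strand (CCAAT or its reverse complement) and, on either strand, the sterol regulatory element TCACNCCAC, through which SREBP2 is known to act; the 2 motifs do not overlap in these stretches.
Msmo1, chr8:64733579-64733828, minus strand: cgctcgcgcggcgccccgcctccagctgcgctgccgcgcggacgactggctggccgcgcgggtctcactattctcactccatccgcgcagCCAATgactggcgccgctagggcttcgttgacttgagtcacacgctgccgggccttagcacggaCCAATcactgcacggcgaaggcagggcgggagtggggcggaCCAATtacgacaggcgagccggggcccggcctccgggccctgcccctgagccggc
Mvd, chr8:122443423-122443672, minus strand: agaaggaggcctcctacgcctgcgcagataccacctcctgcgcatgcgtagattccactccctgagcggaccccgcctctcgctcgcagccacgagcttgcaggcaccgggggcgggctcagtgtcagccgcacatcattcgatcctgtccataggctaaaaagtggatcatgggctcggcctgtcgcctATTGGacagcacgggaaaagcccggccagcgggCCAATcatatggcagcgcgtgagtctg
Hmgcs1, chr13:119690101-119690350, plus strand: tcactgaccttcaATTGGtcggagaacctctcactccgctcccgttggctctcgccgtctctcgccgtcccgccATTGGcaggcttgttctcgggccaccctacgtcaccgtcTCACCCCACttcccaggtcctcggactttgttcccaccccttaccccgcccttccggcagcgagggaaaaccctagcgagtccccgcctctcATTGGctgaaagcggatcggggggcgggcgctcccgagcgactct
Msmo1 held 3 CCAAT boxes and Mvd 2, and neither held the sterol regulatory element in these letters, while Hmgcs1 held 3 and 1. In the whole RefSeq window, 250 bases before to 50 after the start, a CCAAT box was found for 15 of the 15 cholesterol genes with an entry, 6 of 10 fatty acid genes and 3 of 4 sebaceous genes, against 41.1% of 27025 genes and 37.4% of 32851 windows. The GC box GGGCGG was found for 14 of the 15 cholesterol genes and 38.2% of all genes, and TCACNCCAC for 1 of the 15, Hmgcs1, and 1.44% of all genes.

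Msmo1 encodes the sterol methyl oxidase that starts the removal of the methyl groups of lanosterol's descendants at carbon 4. It read 8.33 and 8.09 on the control arrays, 6.67 and 7.11 with minoxidil, 8.43 and 8.06 with tieghemelin, and 7.96 and 8.39 under maslinic acid. Both minoxidil arrays were the lowest of the 8 and lay below background, and the other 3 groups overlapped with one another. Tieghemelin exceeded minoxidil by 1.35 (SE 0.32, limma adjusted p = 0.211), at least 1.77-fold, and maslinic acid did so by 1.28 (SE 0.32, adjusted p = 0.184), at least 1.68-fold. For the mean of both, 1.32 (SE 0.28, adjusted p = 0.0934), the thresholds were met under each of the 13 alternatives run, with values from 0.79 to 1.53. The smallest of these, with values below background set to it, was also the setting under which maslinic acid alone, at 0.75, no longer met them. The filter on dim probe sets removed Msmo1, so that alternative is not among those run for it.

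Mvd, mevalonate diphosphate decarboxylase, makes the first isoprenoid unit. Its signal was 8.72 and 8.86 in control, 9.78 and 9.59 with minoxidil, 8.33 and 9.12 with tieghemelin, and 8.91 and 8.45 under maslinic acid. The minoxidil arrays were the highest of the 8, and the control arrays lay within the range of the triterpene arrays. Relative to minoxidil it was lower by 1.94-fold with tieghemelin (log2 -0.96, SE 0.35, limma adjusted p = 0.305), and 2.01-fold with maslinic acid (-1.01, SE 0.35, adjusted p = 0.268). The mean of both was 1.98-fold lower (-0.98, SE 0.30, adjusted p = 0.16). Each of these calls ended without minoxidil array 1 (-0.86, -0.91 and -0.89) and without moderation of the variances, the one for tieghemelin also without tieghemelin array 1 (-0.56), and the one for maslinic acid without maslinic acid array 2 (-0.77).

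Among the other genes of the early pathway, Mvk, mevalonate kinase, was above background on no minoxidil array and on all 4 triterpene arrays, with values of 6.55 and 6.94 against 7.18 to 7.59. Its log2 difference was 0.60 (SE 0.26) and has no fold, since background was itself higher with minoxidil. Hmgcs1 (HMG-CoA synthase) and Idi1 (isopentenyl diphosphate isomerase) spread widely within the triterpene groups. Hmgcs1 read 7.91 and 8.41 with tieghemelin and 9.22 and 7.76 under maslinic acid, against 7.91 and 7.78 with minoxidil. Idi1 read 7.33 and 8.72, 8.45 and 7.14, and 7.66 and 6.94 in the same order. In each case the groups overlapped. Pmvk, Fdps, Fdft1 and Sqle, which carry mevalonate on to squalene epoxide, differed from minoxidil by -0.12 to 0.32 in the mean of both, and none met the thresholds.

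From lanosterol onwards the genes went both ways. Lss, which closes the ring of lanosterol, was higher on all 4 triterpene arrays (8.87 and 8.60, 8.38 and 9.12) than on either minoxidil array (8.29 and 7.90), a difference of 0.65 (SE 0.29) in the mean of both that missed the thresholds. Dhcr7, a reductase of the final steps to cholesterol, read 8.43 and 8.32 in control, 8.63 and 8.56 with minoxidil, 9.59 and 9.11 with tieghemelin, and 8.81 and 9.80 under maslinic acid. All 4 triterpene arrays exceeded the 4 others, by 1.66-fold relative to minoxidil in the mean of both (log2 0.73, SE 0.32, limma adjusted p = 0.288), just short of the fold threshold. Ebp, the sterol isomerase, read 5.75 and 5.11 in control and 5.52 and 5.96 with minoxidil. It read 6.72 and 6.30 with tieghemelin and 5.48 and 6.23 under maslinic acid. Ebp met the thresholds with tieghemelin at 0.78 (SE 0.35, limma adjusted p = 0.388), but its 8 values all lay below background and it has no fold. The Ebp call ended, among other alternatives, without minoxidil array 1 (0.56), without tieghemelin array 1 (0.57) or 2 (0.99), without moderation and with all 8 arrays. With values below background raised to it the difference turned to -0.43, which is then the difference between background medians alone.

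Hsd17b7, the ketosteroid reductase that acts beside Msmo1 and Nsdhl in the same demethylation, was lower on all 4 triterpene arrays (7.42 to 7.71) than with minoxidil (7.83 and 8.12), by a log2 difference of -0.40 (SE 0.25) that missed the thresholds. Nsdhl, the dehydrogenase of that step, differed by 0.03, and Sc5d, the desaturase before Dhcr7, by -0.35. Cyp51, which removes the first methyl group of lanosterol, was below background on all 8 arrays. Srebf2 and Insig1, the control genes of the branch, differed from minoxidil by 0.01 (95% interval -0.60 to 0.63) and 0.19 (-0.38 to 0.76).

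**Figure D3:**
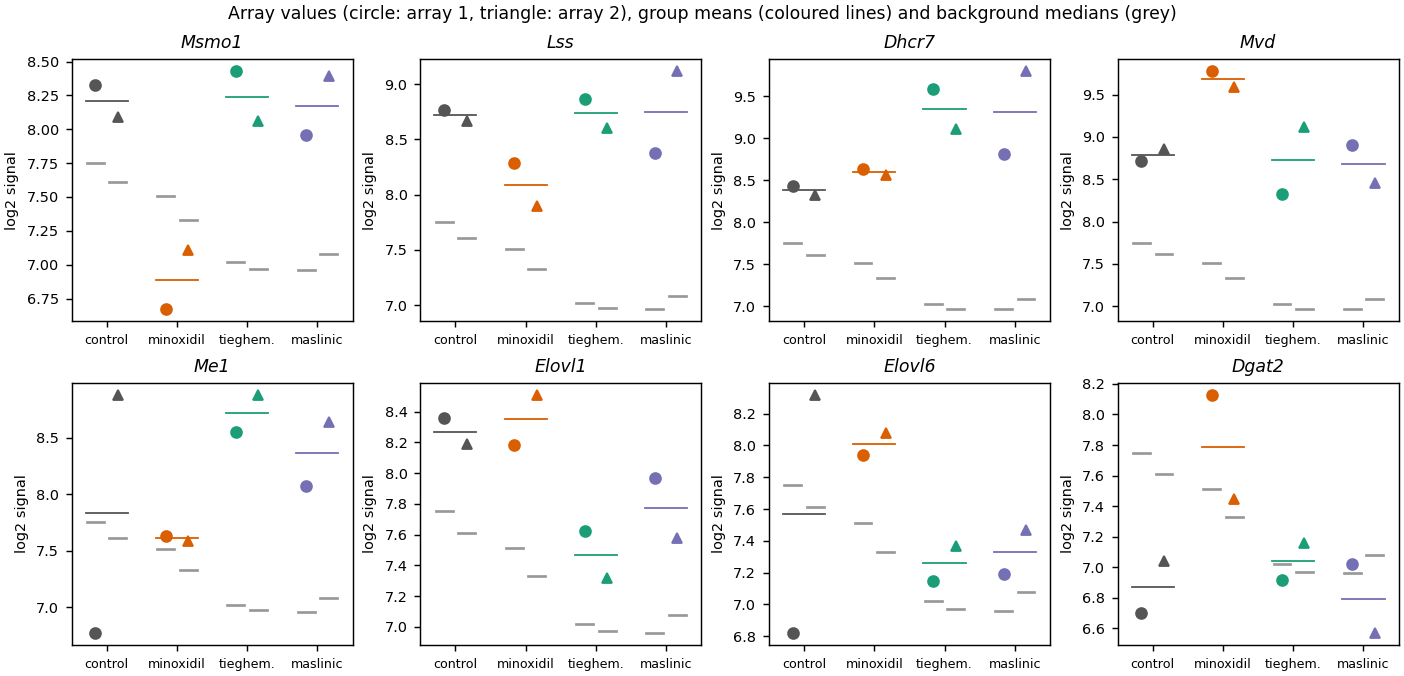
Log2 signal (y axis, with its own range for each gene) of 8 genes on each array by group, with group means as coloured lines and the background median of each array in grey. Msmo1 on the minoxidil arrays, 6.67 and 7.11, lies below the background of 7.51 and 7.33, and Mvd, Elovl6 and Dgat2 have both minoxidil arrays above the 4 triterpene arrays.

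In the fatty acid branch, 2 genes met the study's thresholds with tieghemelin against minoxidil. The gene of the NADPH-supplying enzyme was higher, also in the mean of both triterpenes, and 1 elongase gene was lower. Me1, the malic enzyme that provides NADPH for fatty acid synthesis, read 6.77 and 8.88 in control, 7.63 and 7.58 with minoxidil, 8.55 and 8.88 with tieghemelin, and 8.07 and 8.64 under maslinic acid. The 4 triterpene arrays exceeded both minoxidil arrays, and the control arrays spanned the whole range. Tieghemelin was 2.16-fold above minoxidil (log2 1.11, SE 0.31, limma adjusted p = 0.235) and the mean of both 1.91-fold (0.93, SE 0.27, adjusted p = 0.15), while maslinic acid, at 1.68-fold (0.75, SE 0.31), missed the thresholds. The calls for tieghemelin and for the mean of both ended only when the 2 control arrays entered the fit, which left the differences as they were and widened the errors; no other alternative run ended either.

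Elovl1, the elongase of very long saturated and monounsaturated chains, read 8.36 and 8.19 in control, 8.18 and 8.51 with minoxidil, 7.62 and 7.32 with tieghemelin, and 7.97 and 7.58 under maslinic acid. All 4 triterpene arrays lay below the 4 others. With tieghemelin it was 1.84-fold lower than with minoxidil (log2 -0.88, SE 0.31, limma adjusted p = 0.291), a call that ended without minoxidil array 2 (-0.71) or tieghemelin array 2 (-0.73), and with maslinic acid the difference was -0.57 (SE 0.31). Elovl6, which lengthens palmitate to stearate, read 6.82 and 8.32 in control, 7.94 and 8.08 with minoxidil, 7.15 and 7.37 with tieghemelin, and 7.19 and 7.47 under maslinic acid. The minoxidil arrays lay above all 4 triterpene arrays, the control arrays spanned both, and the differences of -0.75 and -0.68 (SE 0.29 each), 1.68- and 1.61-fold, fell short of the fold threshold. Elovl3, Elovl4 and Elovl5 were also below minoxidil in the mean of both, at -0.40, -0.22 and -0.44, without meeting the thresholds, and Elovl4 and Elovl5 were above background on no minoxidil array.

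None of the 3 core synthesis genes met the thresholds between treated groups. Fasn, fatty acid synthase, read 9.43 and 8.85 with minoxidil, 8.96 and 8.32 with tieghemelin and 8.68 and 8.96 under maslinic acid, and the groups overlapped (mean of both, -0.41, SE 0.30). Acly and Acaca, which make cytosolic acetyl-CoA and carboxylate it, differed by 0.05 (95% interval -0.72 to 0.82) and 0.10 (-0.56 to 0.76). Scd1, the main stearoyl-CoA desaturase of skin and sebaceous gland, was below background on both minoxidil arrays (6.97 and 7.19) and above it on all 4 triterpene arrays (7.38 to 7.86). Tieghemelin was thus at least 1.28-fold above minoxidil for Scd1 (log2 0.69, SE 0.29) and maslinic acid at least 1.07-fold (0.44, SE 0.29), neither at the thresholds. Scd3, Fads1 and Fads2, the other desaturases, differed by 0.43, -0.15 and -0.33.

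Of the 9 sebaceous lipid genes 1 met the thresholds with tieghemelin and 1 with maslinic acid, each a different acyltransferase. Of all probe sets 10.4% and 11.1% met them, so these counts lie near that share. Dgat2, which joins the last fatty acid to a triglyceride, read 6.70 and 7.04 in control, 8.13 and 7.45 with minoxidil, 6.92 and 7.16 with tieghemelin, and 7.02 and 6.57 under maslinic acid. Both minoxidil arrays were above background and above the other 6. With maslinic acid Dgat2 was 1.99-fold lower than with minoxidil (log2 -0.99, SE 0.33, limma adjusted p = 0.265), and in the mean of both 1.83-fold lower (-0.87, SE 0.29, adjusted p = 0.185); tieghemelin, at -0.75 (SE 0.33), was short of the fold threshold. Both calls ended without minoxidil array 1 (-0.65 and -0.53), without maslinic acid array 2 (-0.77 and -0.76), without moderation of the variances, and with values below background set to it (-0.74 and -0.72). White fat cells also express Dgat2. Of 9 white adipocyte markers 1 met the thresholds higher and 1 lower with maslinic acid, against 5.3% and 5.79% of all probe sets. Their medians were 8.11 and 7.91 under maslinic acid and 7.95 and 7.97 with minoxidil. Fabp4, the lipid carrier of fat cells and 1 of the 9, read 15.17 and 11.25 under maslinic acid and 10.56 and 11.14 with minoxidil. The part of fat cells in the Dgat2 result was not tested.

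Awat1, a wax ester synthase of sebaceous glands, read 7.85 and 6.95 in control, 6.33 and 6.18 with minoxidil, 7.32 and 6.80 with tieghemelin, and 6.43 and 6.71 under maslinic acid. Tieghemelin array 1 was the only treated array above background, so the difference of 0.81 (SE 0.31, limma adjusted p = 0.325) from minoxidil with tieghemelin has no fold. The call ended without minoxidil array 2 (0.74) or tieghemelin array 1 (0.55) and with all 8 arrays, and the difference turned to -0.28 with values below background set to it. Dgat1, the other enzyme of triglyceride synthesis, read 8.50 and 6.98 in control, 6.88 and 6.93 with minoxidil, 5.89 and 7.28 with tieghemelin, and 6.88 and 5.80 under maslinic acid. Its 2 arrays differed by over 1 log2 unit within both triterpene groups, and the groups overlapped. Awat2, Far2 and Mc5r, respectively a wax synthase, a fatty acyl reductase and a melanocortin receptor of sebocytes, differed from minoxidil by -0.13, -0.23 and 0.09 in the mean of both. Far1, Cidea and Pm20d1 were below background on all 6 treated arrays.

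Markers of other cells are set beside these differences, with 10.4% of all probe sets at the thresholds for tieghemelin and 11.1% for maslinic acid. Of 7 sebocyte markers 1 (14.3%) met the thresholds with tieghemelin and 0 with maslinic acid, and their medians on the treated arrays were 7.10 and 6.98 with minoxidil, 7.49 and 7.42 with tieghemelin, and 7.71 and 7.32 under maslinic acid. On these arrays 2 to 5 of the 7 were above background. Of 8 skeletal muscle markers 6 (75.0%) met the thresholds lower with tieghemelin (median -2.45) and 0 with maslinic acid (median -0.51), where the 2 arrays stood far apart. Of 6 keratinocyte markers 1 (16.7%) met them lower with tieghemelin and 0 with maslinic acid. The part of these cells in the differences from minoxidil was not tested.

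The 2 triterpenes were not distinguished by these genes. In tieghemelin against maslinic acid 0 of the 40 met the thresholds and 0 had an unadjusted p under 0.05, where 1.56% and 2.28% of all probe sets did; limma's smallest adjusted p among the 40 was 1.0. For 37 of the 40 the difference was under 0.5 log2 units, the others being Ebp (0.66), Acaca (0.63) and Nsdhl (0.52). Ranges were separate for 8 of the 40, against 30.6% of all probe sets. Branch medians were 0.01 for cholesterol, -0.12 for fatty acids and 0.20 for sebaceous lipids, with 0.01 for all probe sets. The 95% intervals were wide, from -0.63 to 0.78 for Msmo1, -0.72 to 0.81 for Mvd, -0.33 to 1.06 for Me1 and -0.50 to 0.98 for Dgat2. Differences of 1.5-fold either way thus lie within the intervals of Msmo1 and Mvd, and the data do not show that the compounds act alike.

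Set against water, the genes that separated the triterpenes from minoxidil differed in which treatment lay away from control. Msmo1 was lower than control with minoxidil, at least 1.72-fold (log2 -1.32, SE 0.38, limma adjusted p = 0.44), and met the thresholds, while tieghemelin and maslinic acid differed from control by 0.04 and -0.04. Without control array 1 these values were -1.20, at least 1.59-fold, 0.16 and 0.08. The minoxidil call ended without minoxidil array 1 (-1.10). Mvd was above control with minoxidil by 0.89 (SE 0.40), without meeting the thresholds, and was within 0.11 of it with either triterpene. Dgat2 had the same order, at 0.92, 0.17 and -0.08, with both its control values (6.70 and 7.04) below background (7.75 and 7.61). Dhcr7 and Elovl1 had the reverse one, with minoxidil near control (0.22 and 0.07) and tieghemelin (0.97 and -0.80) and maslinic acid (0.93 and -0.50) further from it, none at the thresholds with all 8 arrays. Without control array 1 the differences for minoxidil, tieghemelin and maslinic acid in turn were 0.83, -0.13 and -0.18 for Mvd and 0.74, -0.01 and -0.25 for Dgat2. They were 0.28, 1.03 and 0.99 for Dhcr7, of which the one with tieghemelin met the thresholds, and 0.16, -0.72 and -0.41 for Elovl1. These comparisons share their control or minoxidil arrays and are not independent of one another. Since the control values of Dgat2 lay below background, its differences of 0.92 and 0.74 with minoxidil include a part below that level.

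In full, 8 of the 40 genes met the thresholds with minoxidil against control (20.0%, against 11.3% of all probe sets), 6 with tieghemelin (15.0%, against 11.7%) and 7 with maslinic acid (17.5%, against 10.8%). Limma's adjusted p was under 0.05 for 0 of the 40 in each, and the counts at an unadjusted p under 0.05 were again 8, 6 and 7. With minoxidil these were Msmo1, Hmgcs1, Scd1, Far1, Awat1, Cidea and Pm20d1, lower, and Srebf2, higher. With tieghemelin they were Fasn, Far1 and Pm20d1, lower, and Ebp, Acaca and Srebf2, higher, and with maslinic acid Fasn, Elovl3, Far1 and Pm20d1, lower, and Mvk, Scd3 and Srebf2, higher. Control array 1 stood away from the other arrays for several of these. Far1, a fatty acyl reductase, read 9.07 on it, 7.02 on control array 2 and 5.27 to 6.26 on the treated arrays, and was above background on control array 1 alone. Without that array the Far1 differences of -1.92, -2.54 and -2.08 became -0.90, -1.52 and -1.06 and still met the thresholds, with all values below background. The calls for Cidea (-0.45), Awat1 (-0.70) and Pm20d1 (-0.67) with minoxidil and for Fasn with maslinic acid (-0.91) ended without it. Cidea, a lipid droplet protein of sebocytes and brown fat, read 9.20 on it and 6.39 to 6.89 on the treated arrays. Srebf2 read 7.06 on it, 8.15 on control array 2 and 8.47 to 9.02 on the treated arrays, and without control array 1 its differences of 1.13, 1.16 and 1.12 became 0.58, 0.62 and 0.57 and no longer met the thresholds.

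Without control array 1, 6 genes met the thresholds with minoxidil (15.0%, against 12.9% of all probe sets), 12 with tieghemelin (30.0%, against 13.7%) and 8 with maslinic acid (20.0%, against 12.8%). Limma's adjusted p was under 0.05 for 0 of the 40 in each, against 0.0045%, 0.356% and 0.0045% of all probe sets, and 6, 12 and 8 of the 40 had an unadjusted p under 0.05. The median difference of the 13 fatty acid genes from control was -0.30 with minoxidil, -0.70 with tieghemelin and -0.53 with maslinic acid. Without control array 2 instead, it was 0.61, 0.28 and 0.49, so its sign depended on the control array kept. Some of the single genes at the thresholds without control array 1 follow. Ebp (log2 1.4) and Pm20d1 (-0.85) with tieghemelin, and Mvk (1.2) and Pm20d1 (-0.93) with maslinic acid, met them with control array 2 below background. With tieghemelin Elovl5 was at least 2.01-fold lower than control (log2 -1.45, SE 0.38), and Elovl6 2.08-fold (-1.06), Fasn 2.13-fold (-1.09), Elovl3 1.95-fold (-0.96) and Scd1 1.83-fold (-0.87) lower, while Acaca was at least 1.19-fold higher. With maslinic acid Elovl3, Elovl5, Elovl6 and Scd1 were lower by 2.47-, 2.11-, 1.98- and 2.17-fold, and Scd3 was higher (0.96, SE 0.43), with no fold because of the difference in background. With minoxidil Scd1 was at least 2.34-fold lower (-1.56, SE 0.36), Hmgcs1 2.89-fold (-1.53, SE 0.54) and Me1 2.43-fold (-1.28, SE 0.38). These single-gene values rest on control array 2 alone, assumed to vary like the treated ones. That array also had a higher median of keratinocyte markers, 10.5, against 8.68 to 9.7 on the treated arrays. The same held for skeletal muscle markers (15.03, against 8.8 to 12.19) and fibroblast markers (10.12, against 8.43 to 9.41). The median of the white adipocyte markers on that array was 8.47, against 7.91 to 8.54 on the treated arrays. The part of these cells in the fatty acid differences was not tested.

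**Figure D4:**
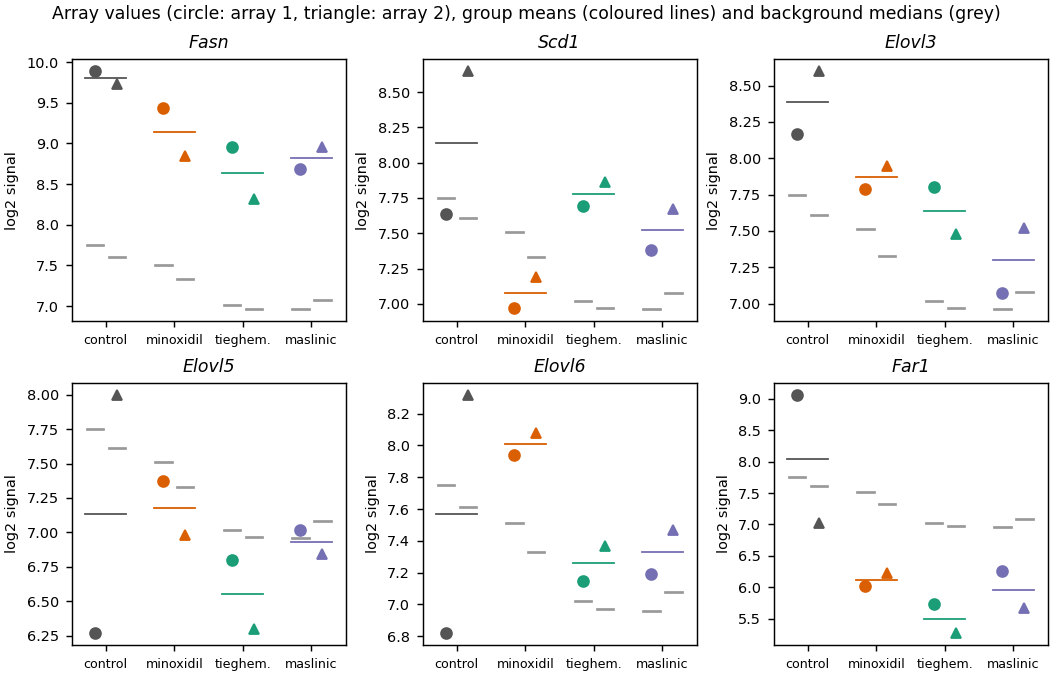
Log2 signal (y axis, with its own range for each gene) of 6 genes on each array by group, with group means as coloured lines and the background median of each array in grey. The 2 control arrays are close for Fasn, 9.89 and 9.73, and far apart for Elovl5, 6.27 and 8.00, Elovl6, 6.82 and 8.32, and Far1, 9.07 and 7.02.

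Further genes of these pathways, outside the 44, were read from fixed lists in the mean of both triterpenes against minoxidil. Of 26 other lipogenic genes 4 met the thresholds (15.4%, against 10.1% of all probe sets). Elovl2, an elongase of polyunsaturated chains, was 2.13-fold lower (log2 -1.09, SE 0.25, limma adjusted p = 0.107), with 9.46 and 9.85 on the minoxidil arrays against 8.32 to 8.81 on the triterpene arrays, and met the thresholds under each of the 14 alternatives run. Thrsp, a lipogenic regulator, was at least 1.58-fold lower (-1.17, SE 0.30), a call that ended without minoxidil array 1 (-0.76) and with the background floor (-0.70). Acsl4, which activates arachidonic acid, was 2.02-fold higher (1.02, SE 0.39), and the desaturase family member Fads6 1.85-fold higher (0.89, SE 0.28). The Acsl4 call ended without minoxidil array 1 (0.88) or 2 (1.15), tieghemelin array 1 (0.86) or maslinic acid array 2 (0.64), without moderation, with the background floor (0.92) and with all 8 arrays. The Fads6 call ended without minoxidil array 2 (0.57), with the floor (0.72) and with all 8 arrays.

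Of 20 barrier lipid genes 3 met the thresholds (15.0%, against 10.1% of all probe sets). Cers4, a ceramide synthase, was 1.76-fold higher (0.82, SE 0.25), from 10.90 and 11.13 with minoxidil to 11.76 to 11.91 with the triterpenes, while Degs1, which desaturates ceramide precursors, and Smpd1, acid sphingomyelinase, were 1.78- and 1.75-fold lower (-0.83, SE 0.30, and -0.81, SE 0.29). These calls ended without minoxidil array 1 (0.70, -0.55 and -0.68), that for Degs1 also without maslinic acid array 1 (-0.62), and that for Smpd1 without that array (-0.62) or tieghemelin array 2 (-0.75). The Cers4 call also ended with all 8 arrays, and those for Degs1 and Smpd1 without moderation. Of 17 other sterol genes 0 met the thresholds, with the largest differences for Mbtps1 (0.62) and Lbr (0.57), higher, and Stard4 (-0.61) and Mylip (-0.58), lower. Of 13 other sebaceous genes 0 did, with Rxra at -0.64, Hsd3b6 at -0.59, Plin2 at 0.57 and Prdm1 at -0.50.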

How the data were processed

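Each value was the log2 signal of a probe set as deposited. Per the series' design text, CEL files were normalised by the authors in the Transcriptome Analysis Console 4.0.1, and the submitters' processing notes name Affymetrix Expression Console and RMA. A genome build is not given in the sources used here. After removal of 6640 control probe sets, 22206 entered the tests as deposited, unscaled and unfiltered. Of these 19572 carried 1 symbol and 2634 none. Limma 3.58.1 in R 4.3.3 fitted group means with lmFit and eBayes, on the 6 treated arrays (3 residual degrees of freedom) between treatments and on all 8 (4 residual degrees of freedom) against control, and p-values were adjusted by Benjamini-Hochberg within a comparison, over every probe set. Code was tested on simulated data.

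The members, lists and tests were chosen with earlier results of these data known. Every measured member could be named. Array values were given for members at the study's thresholds against minoxidil and for the 3 per branch with the largest difference in the mean of both triterpenes; up to 4 genes of each further list were named by size. Arrays of the same number did not deviate together (correlations of deviations -0.17 to 0.09), and the labels give no shared source, so the numbers were not taken to pair arrays. Alternatives were other eBayes settings, normalisations, a filter on dim probe sets, a background floor, a replicate block, other sets of arrays and leaving out each array.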

Additional observations from a re-analysis of the deposited data

How the results depend on the processing

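Probe sets at the study's thresholds for tieghemelin against minoxidil (2314) numbered 1018 without moderation, 1305 among brighter probe sets and 732 with all 8 arrays; for maslinic acid (2463) 1158, 1395 and 800; for the mean of both (2249) 1159, 1296 and 1015; for tieghemelin against maslinic acid (347) 113, 148 and 68, and 218 with a background floor. Against control they numbered 1467 and 1265 for minoxidil (2502), 1570 and 1346 for tieghemelin (2609), and 1473 and 1219 for maslinic acid (2409), without moderation and among brighter probe sets, and 683, 964 and 821 on the 2 groups alone. Members at the thresholds numbered 2 (brighter) and 3 (all 8 arrays) for tieghemelin against minoxidil, 1 (no moderation, brighter, or floor) for maslinic acid, and 2 (no moderation or brighter) for the mean of both. Against control they numbered 4, 1, 4 and 2 for minoxidil (no moderation, brighter, floor, 2 groups alone), 2 and 1 for tieghemelin and 2 and 2 for maslinic acid (brighter, 2 groups alone). Adjusted calls for the mean of both (4) numbered 7 with trend and robust settings, 1 after quantile normalisation, and 0 without moderation, with a floor or with all 8 arrays; for maslinic acid against minoxidil (0) they were 1 with trend and robust settings and 1 after quantile normalisation.

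Leaving out 1 array gave, for probe sets at the thresholds, 1581 to 3706 (tieghemelin against minoxidil), 2072 to 3803 (maslinic acid), 2235 to 3899 (mean of both) and 363 to 781 (between triterpenes), and against control 1189 to 10508, 815 to 10549 and 773 to 10499. Members numbered 5 to 10, 1 to 6, 5 to 7 and 0 to 2, and against control 0 to 15, 3 to 13 and 2 to 13. Adjusted calls were 0 to 1 for maslinic acid against minoxidil, 0 to 2 for the mean of both, 0 to 7 between triterpenes, and 0 to 8363, 0 to 8427 and 0 to 8282 against control. The highest value of each range against control came without control array 2, which left the outlying control array 1 as the only control. Among differences of named genes that met the thresholds, those that changed sign did so with the background floor: Awat1 (-0.28) and Ebp (-0.43) for tieghemelin against minoxidil, Ebp (-0.69) for tieghemelin against control, and Mvk (-0.30) and Scd3 (-0.09) for maslinic acid against control. Of the branch medians against minoxidil, the cholesterol one turned with the floor (tieghemelin 0.30 to -0.04, maslinic acid 0.09 to -0.03, mean of both 0.18 to -0.03). The fatty acid one went from -0.21 to -0.5 for tieghemelin among brighter probe sets, and from -0.22 to -0.33 for the mean of both there and with the floor. For maslinic acid it went from -0.22 to -0.32 with the floor and to -0.06 without minoxidil array 1. The sebaceous one went from -0.18 to 0.08 for tieghemelin and from -0.22 to -0.10 for the mean of both without tieghemelin array 1. Without tieghemelin array 2 it was -0.34 for tieghemelin. For maslinic acid it went from -0.16 to -0.4 with the floor and to -0.02 without maslinic acid array 2. Between the triterpenes the cholesterol median, 0.01, was -0.07 without tieghemelin array 2, and the fatty acid one, -0.12, was 0.04 without tieghemelin array 1. The cause was not tested in any of these cases.

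With the replicate number as a block, members at the thresholds numbered 5, 3 and 4 against minoxidil and 7, 5 and 6 against control, and adjusted calls for the mean of both 0 where they had been 4. The named calls that ended with it were Ebp for tieghemelin against minoxidil and against control, Hmgcs1 for minoxidil and Mvk for maslinic acid against control. A crossed block for the triterpenes, chosen after seeing the data, gave 455 probe sets and 0 members at the thresholds and 0 adjusted calls. With 2 arrays per group, the number of arrays limits the precision throughout.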

Other observations

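Within each triterpene group the 2 arrays differed in some cholesterol and fatty acid genes. The pattern was noticed, and the genes named here were picked, after the values were seen. Idi1 was higher on tieghemelin array 2 than on array 1 (8.72 and 7.33) and on maslinic acid array 1 than on array 2 (8.45 and 7.14), and Hmgcs1 (8.41 and 7.91, 9.22 and 7.76), Mvd (9.12 and 8.33, 8.91 and 8.45) and Acly (8.43 and 7.39, 8.46 and 7.69) had the same order, while Dhcr7 (9.11 and 9.59, 8.81 and 9.80) had the opposite one. The difference had the same sign in both groups for 13 of the 18 cholesterol genes (72.2%), 7 of 13 fatty acid genes (53.8%) and 4 of 9 sebaceous genes (44.4%), against 55.4% of all probe sets. This is a description of 4 arrays, whose numbers carry no order, and was given no test.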
